A study of Mus musculus with 16 samples.

Results

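The miR-322, miR-503 and miR-351 cluster is a run of miRNA hairpins on the mouse X chromosome, and 9 of its mature miRNAs were followed here over the first 12 h after serum was returned to resting fibroblasts. The members were chosen by name: mmu-miR-322-5p, mmu-miR-322-3p, mmu-miR-503-5p, mmu-miR-503-3p, mmu-miR-351-5p, mmu-miR-351-3p, mmu-miR-542-5p, mmu-miR-542-3p and mmu-miR-450a-5p, written below without the species prefix. They are 9 of the 1167 mature miRNAs in the count table and 9 of the 449 that passed the low-count filter, so all 9 members were tested. Small RNA came from 3T9 cells, an immortalised line derived from mouse embryo fibroblasts. In the labels the cells of the later groups were given complete medium with 10% fetal bovine serum for 1, 2, 4, 6, 8, 10 or 12 h, and those of the 0 h group had no serum; all 8 groups had first been kept without serum for 72 h. Each time had 2 libraries, which the series design calls independent biological experiments, and the 16 libraries held 5852087 to 7783249 miRNA reads. The question set by the design is how miRNAs are regulated when resting fibroblasts receive serum. All groups share 1 cell line and 1 way of arrest, so no continuously growing or continuously starved cells stand beside the later times.

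A miRNA hairpin is cut by Drosha and Dicer into a short duplex whose 5p and 3p arms are each a possible mature miRNA. One arm is usually kept by an Argonaute protein and guides it to mRNAs that pair with its seed, the bases near the 5′ end, while the other is usually lost. miR-322 is the mouse counterpart of human miR-424. miR-322-5p and miR-503-5p have been studied as brakes on the cell cycle in muscle and other mesenchymal cells, where mRNAs of cyclins and of Cdc25a are among their known targets. miR-351-5p carries the seed of miR-125a-5p and miR-125b-5p, and human miR-542-3p is known for repressing the mRNA of survivin.

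The mature sequences below (RefSeq, GRCm38.p6, written 5′ to 3′) are those the results turn on, and capitals mark the seed, bases 2 to 8 counted from 1 at the 5′ end. RefSeq sequences were matched for 9 of 9 members. The first set shows how close miR-322-5p and miR-503-5p stand to miR-16-5p, an abundant miRNA of these cells.
miR-322-5p: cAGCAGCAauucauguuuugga
miR-503-5p: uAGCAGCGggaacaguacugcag
miR-16-5p: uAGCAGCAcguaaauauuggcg
Between miR-322-5p and miR-503-5p the seed differs by A8G, and miR-322-5p has the whole seed of miR-16-5p. The second set shows the 5p arm of miR-351 beside its seed relatives.
miR-351-5p: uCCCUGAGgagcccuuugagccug
miR-125a-5p: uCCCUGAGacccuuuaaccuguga
miR-125b-5p: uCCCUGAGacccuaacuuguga
The first 8 bases of miR-351-5p are those of both relatives, and the first difference is G9A against each of them. The last set holds the partner arms of miR-503 and miR-351.
miR-503-3p: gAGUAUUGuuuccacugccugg
miR-351-3p: gGUCAAGAggcgccugggaac
No other mature mouse miRNA in the RefSeq table carried the seed of miR-503-5p, miR-503-3p or miR-351-3p.

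The 7 hairpins of the cluster lie within 6353 bases of chromosome X (53047997 to 53054349, GRCm38, GENCODE M21), all on the minus strand, so Mir322 comes first along the transcribed strand. Mir322 (53054255 to 53054349), Mir503 (53053984 to 53054054) and Mir351 (53053255 to 53053353) lie within the first part of the run. Mir542 (53049403 to 53049487), Mir450-2 (53048299 to 53048367), Mir450-1 (53048154 to 53048244) and Mir450b (53047997 to 53048078) follow. The lincRNA gene Gm28730 (53051194 to 53053159) is annotated in the gap between Mir351 and Mir542, on the same strand. No hairpin overlaps another annotated gene. The mature miR-450a-5p is the same from Mir450-1 and Mir450-2, so its reads cannot be assigned to one of them.

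**Figure D1:**
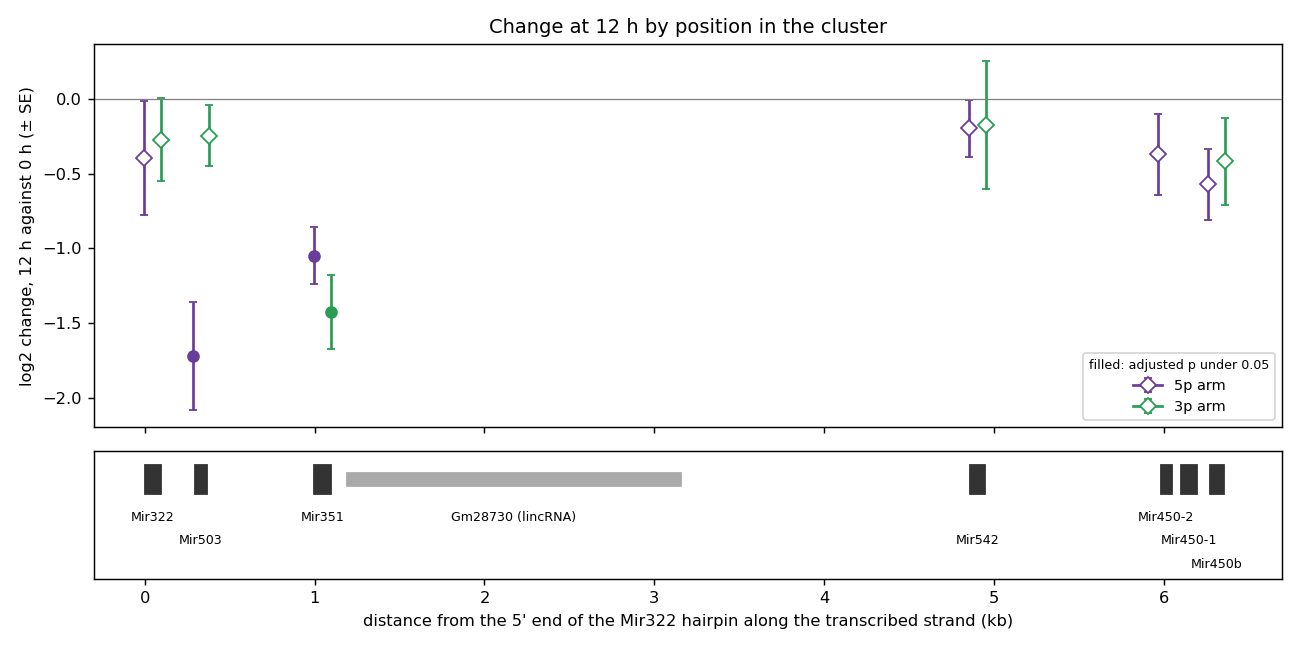
Log2 change at 12 h against 0 h (y axis, ± SE) by distance along the transcribed strand from the Mir322 hairpin in kb (x axis), with 5p arms in purple and 3p arms in green and filled circles for an adjusted p under 0.05; miR-450a-5p is drawn at Mir450-2 although Mir450-1 gives the same sequence. In the fit without the replicate block, the filled points are miR-503-5p at -1.72, miR-351-5p at -1.05 and miR-351-3p at -1.43. Every other point is an open diamond.

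All 5 mesenchymal and fibroblast marker miRNAs were present, with a sum of 125877 to 174238 CPM (reads divided by the scaled total of their library) in each library. Markers of other tissues were low in every library, at 0.299 to 1.90 CPM for the 4 blood markers, 0 to 0.629 CPM for the liver marker miR-122-5p, 0.758 to 2.26 CPM for the 4 epithelial markers and 0 to 0.678 CPM for the 2 pluripotency markers in the table. The neural marker miR-9-5p ranged from 3.92 to 10.4 CPM and had a downward trend (-0.055 log2 per hour, adjusted p = 0.0466, edgeR quasi-likelihood test), with no single time called. That trend was lost with limma-voom (adjusted p = 0.0504), reads of the reference length (adjusted p = 0.0781), no low-count filter (adjusted p = 0.128) and in either replicate alone. Leaving out any single library other than those of 0 h, 6 h replicate 1 or 12 h replicate 2 also ended it (-0.056 to -0.044). Of the 5 mesenchymal markers, miR-214-3p fell, with 607 and 580 CPM at 12 h against 1028 and 1060 CPM at 0 h (log2 change -0.81, adjusted p = 0.000295). It was also called lower at 8 h and 10 h and by the trend (-0.058 per hour, adjusted p = 2.2e-05). The 8 h call ended when any single library was left out (-0.40 to -0.38). It also ended with DESeq2 size factors (-0.41, adjusted p = 0.0515) and with no low-count filter (-0.40, adjusted p = 0.337). Fits of only the 2 times compared ended the calls at 8 h (-0.40, adjusted p = 0.115) and 10 h (-0.59, adjusted p = 0.0737). The other 4 mesenchymal markers were not called at any time or by the trend. With replicate number as a block miR-145a-5p passed at 12 h (-0.37, adjusted p = 0.0449) and by the trend (-0.026 per hour, adjusted p = 0.0381), as did the trend of miR-199a-5p (-0.020 per hour, adjusted p = 0.0248). With total-count scaling miR-145a-5p passed at 12 h (-0.53, adjusted p = 0.0480). Under that scaling the trends of miR-145a-5p (-0.039 per hour, adjusted p = 0.00955), miR-199a-5p (-0.033, adjusted p = 0.00319) and miR-199a-3p (-0.022, adjusted p = 0.00609) passed. With reads of the reference length these trends passed again, as did miR-199a-3p at 10 h (-0.37, adjusted p = 0.0457). The part of these shifts in the members' results was not tested. Where a library has no read of a miRNA, its level could still be as high as 0.385 to 0.513 CPM, the worth of 3 reads. This limit, like every interval on reads here, covers counting error only because the reads carry no molecular identifiers. All libraries of replicate 1 came from one sequencing run and all of replicate 2 from another, so run and replicate number cannot be told apart.

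Members differed in level by more than 3 orders of magnitude on the CPM scale, and miR-351-5p was the most abundant at every time. Levels were not divided by length, since each read spans a whole miRNA. At 0 h miR-351-5p averaged 9561 ± 1371 CPM (SD, n = 2, as for all means below). Next came miR-322-5p at 2354 ± 498 CPM, miR-322-3p at 660 ± 156 CPM and miR-450a-5p at 287 ± 9.55 CPM. Lower down were miR-542-3p at 83.8 ± 0.992 CPM, miR-542-5p at 24.7 ± 4.37 CPM and miR-503-3p at 17.7 ± 2.85 CPM. The lowest were miR-351-3p at 7.83 ± 0.984 CPM and miR-503-5p at 5.85 ± 0.624 CPM. In this order the mean ± SD ranges of miR-542-5p and miR-503-3p overlapped, and those of the other neighbours did not. No member was at 0 in any library, though miR-503-5p had only 8 to 45 reads a library and miR-351-3p only 14 to 63.

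**Figure D2:**
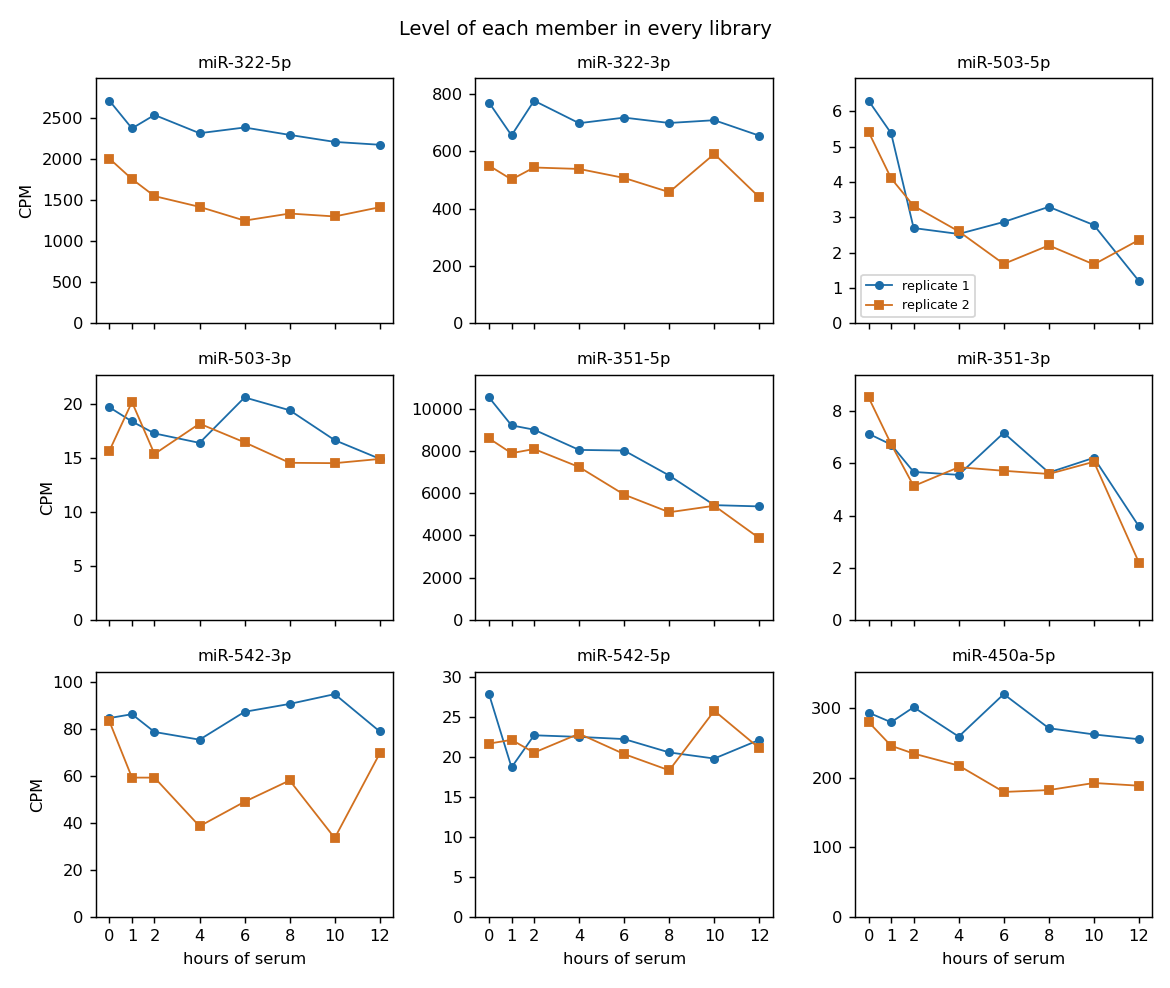
Level of each of the 9 members in CPM (y axis from 0, a scale of its own in each panel) by hours of serum (x axis), with a blue circle for each library of replicate 1 and an orange square for each of replicate 2. miR-351-5p declines in both replicates to 5376 and 3871 CPM at 12 h, while replicate 2 of miR-322-5p lies under replicate 1 at all 8 times.

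The reads of the 9 members together made up 0.687 ± 0.163% of all miRNA reads at 12 h and 1.37 ± 0.213% at 0 h, and most of that difference lay in 1 member. miR-351-5p supplied 63.5 ± 1.14% of the members' reads at 12 h, against 73.6 ± 1.02% at 0 h. miR-322-5p supplied 24.4 ± 1.32% at 12 h and 18.03 ± 0.998% at 0 h. In both cases the libraries of 12 h lay apart from those of 0 h. These shares are a description, with no test.

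Of the 9 members, 3 changed over the course as a whole (miR-351-5p, miR-351-3p and miR-503-5p; edgeR quasi-likelihood test, Benjamini-Hochberg adjusted p under 0.05), where 13.8% of all tested miRNAs did. No member rose at any time. At 1 h and at 2 h none of the 9 was called, by edgeR, DESeq2 or limma-voom, with an unadjusted p under 0.05 for 0 and 2 members; the share called lower among all tested miRNAs was 0.223% at 1 h and 0.891% at 2 h. miR-503-5p was the only member called lower at 4 h (2.9% of all tested) and at 6 h (2.9%), and miR-351-5p the only one at 8 h (3.34%). At 10 h both had fallen (4.68% of all tested), and at 12 h these 2 and miR-351-3p had fallen (6.01%). The same 3 members had a downward trend in log2 expression per hour, a test that 13.1% of all tested miRNAs passed in that direction. The median log2 change of the 9 members was -0.37 at 12 h, with a range of -1.72 to -0.18, beside a median of 0.0047 over all tested miRNAs. With the replicate number as a block, 2 members were called lower at 4 h (6.68% of all tested), 3 at 6 h (8.46%) and 3 at 8 h (7.8%). The same fit gave 3 at 10 h (8.46%), 4 at 12 h (12.2%) and 5 by the trend (15.8%). Added were miR-322-5p (4, 6, 8, 10 and 12 h and trend), miR-351-5p (6 h), miR-503-5p (8 h) and miR-450a-5p (trend). In that fit miR-322-5p also passed for any change (adjusted p = 0.0446), which made 4 members (24.5% of all tested).

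**Figure D3:**
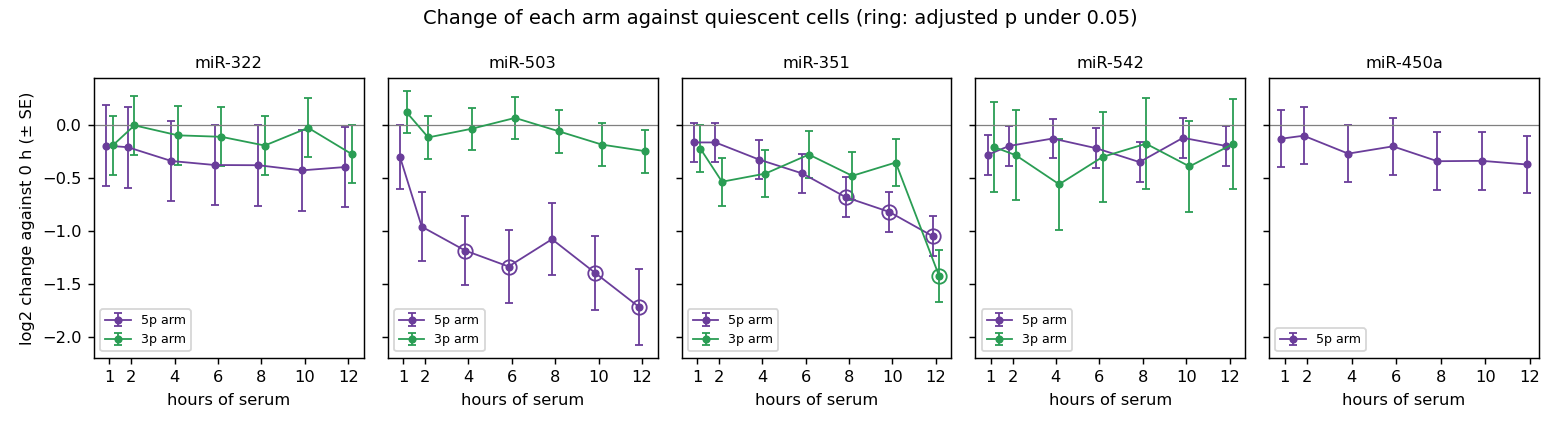
Log2 change against 0 h (y axis, ± SE) at each later time (x axis, hours of serum) for the 5p arm in purple and the 3p arm in green of each hairpin, with a ring where the adjusted p was under 0.05. The rings are from the fit without the replicate block. They lie on miR-503-5p at 4, 6, 10 and 12 h and on miR-351-5p at 8, 10 and 12 h. miR-351-3p has a ring at 12 h, and none lies on miR-322, miR-542 or miR-450a.

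miR-351-5p, the member with the most reads, was lower at 8, 10 and 12 h than at 0 h. Replicate 1 had 10531 CPM at 0 h, 9208 at 1 h, 9005 at 2 h, 8048 at 4 h, 8017 at 6 h, 6837 at 8 h, 5436 at 10 h and 5376 CPM at 12 h. Replicate 2 had 8592 CPM at 0 h, 7891 at 1 h, 8092 at 2 h, 7238 at 4 h, 5933 at 6 h, 5099 at 8 h, 5406 at 10 h and 3871 CPM at 12 h. From 4 h on, both libraries of each time lay below both libraries of 0 h, and the 12 h libraries were the lowest of their replicate. Its level was 4623 ± 1064 CPM at 12 h and 9561 ± 1371 CPM at 0 h, a log2 change of -1.05 ± 0.19 (SE; adjusted p = 0.00166, edgeR quasi-likelihood test). That left 48.4% of the 0 h level, with a 95% interval of 36.5% to 64.0%. The log2 change was -0.68 at 8 h (adjusted p = 0.0349) and -0.82 at 10 h (adjusted p = 0.0105), and with the replicate block the 6 h value also passed (-0.46, adjusted p = 0.00782). Its log2 level changed by -0.083 ± 0.0099 per hour (adjusted p = 2.99e-06), and the trend passed in replicate 1 alone (-0.076 per hour, adjusted p = 1.6e-05) and in replicate 2 alone (-0.088 per hour, adjusted p = 0.000432). Leaving out 0 h replicate 1 ended the calls at 8 h (-0.49) and 10 h (-0.62), and leaving out 10 h replicate 2 ended that at 10 h (-0.77). The 8 h call also ended without 8 h replicate 2 (-0.46), either library of 1 h or of 2 h, or 4 h replicate 1 (-0.66 to -0.65 for these 5). Fewer cells holding the miRNA and less of it per cell cannot be told apart in bulk RNA.

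miR-351-3p, the scarce partner arm, passed the test at 12 h and at no other single time. It had 3.59 and 2.20 CPM at 12 h, against 7.13 and 8.53 CPM at 0 h. At 10 h it stood at 6.21 and 6.06 CPM, so both 12 h libraries lay below every other library. At 1, 2, 4, 8 and 10 h too, both libraries were below both 0 h libraries. The 12 h libraries held 38 reads together and the 0 h libraries 114. The log2 change at 12 h was -1.43 ± 0.25 (adjusted p = 0.00149, edgeR quasi-likelihood test), which left 37.2% of the 0 h level. With only reads of the reference length the change was -1.09 and no longer passed (adjusted p = 0.108). The trend of -0.061 per hour (adjusted p = 0.0271) was lost without 12 h replicate 1 (-0.052), 12 h replicate 2 (-0.039) or 0 h replicate 2 (-0.055). It was also lost without the 0 h libraries (-0.050), with no low-count filter (-0.059) and with reads of the reference length (-0.026, adjusted p = 0.547), and it did not pass in replicate 1 alone (-0.040, adjusted p = 0.262) or in replicate 2 alone (-0.079, adjusted p = 0.123). The call for any change (adjusted p = 0.0355) held with the replicate block, total-count scaling, DESeq2 size factors and limma-voom (adjusted p = 0.0159 to 0.0383). It was lost in the DESeq2 test (adjusted p = 0.0839), with no low-count filter (adjusted p = 0.0932), with reads of the reference length (adjusted p = 0.573) and when any single library other than 6 h replicate 1, 6 h replicate 2 or 12 h replicate 1 was left out.

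miR-503-5p, the arm with the miR-322-like seed, was the earliest member to pass the test without the replicate block. With the block miR-322-5p also passed at 4 h. miR-503-5p had the largest fitted change of the 9 at 12 h. Replicate 1 had 6.30 CPM at 0 h, 5.38 at 1 h, 2.69 at 2 h, 2.53 at 4 h, 2.87 at 6 h, 3.29 at 8 h, 2.78 at 10 h and 1.20 CPM at 12 h. Replicate 2 had 5.41 CPM at 0 h, 4.10 at 1 h, 3.32 at 2 h, 2.60 at 4 h, 1.68 at 6 h, 2.20 at 8 h, 1.67 at 10 h and 2.36 CPM at 12 h. Every library from 1 h on was below both 0 h libraries, and from 2 h on all were below 4 CPM. The 12 h libraries held 23 reads together and the 0 h libraries 85. Its log2 change was -1.18 at 4 h (adjusted p = 0.0430), -1.34 at 6 h (adjusted p = 0.0330), -1.08 at 8 h (adjusted p = 0.0639), -1.40 at 10 h (adjusted p = 0.0152) and -1.72 ± 0.36 at 12 h (adjusted p = 0.00440, edgeR quasi-likelihood test). At 12 h 30.4% of the 0 h level was left, with a 95% interval of 17.7% to 52.1%. The 8 h value passed with the replicate block (adjusted p = 0.0263), with total-count scaling (adjusted p = 0.0327) and with reads of the reference length (-1.87, adjusted p = 0.0278). The trend was -0.12 ± 0.024 per hour (adjusted p = 0.00106) and passed within replicate 1 (-0.13, adjusted p = 0.0308) and within replicate 2 (-0.12, adjusted p = 0.0421).

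The single-time calls of miR-503-5p rest on few reads. The 12 h call was lost without 12 h replicate 1 (-1.28, adjusted p = 0.0676), and the 10 h call without 0 h replicate 1 (-1.24), 0 h replicate 2 (-1.50) or 10 h replicate 2 (-1.02). The 6 h call was lost in the DESeq2 test (adjusted p = 0.0625), with only reads of the reference length (-1.56, adjusted p = 0.0577) and when a single library of 0 h or 6 h, or 4 h replicate 1, was left out (-1.74 to -0.999). The 4 h call was lost in the DESeq2 test (adjusted p = 0.107), with only reads of the reference length (-1.29, adjusted p = 0.0887) and when any single library of 0, 1, 2, 4 or 8 h was left out (-1.25 to -1.04). The call for any change (adjusted p = 0.0260) was lost without either 0 h library or replicate 1 of 1, 4 or 12 h (adjusted p = 0.0531 to 0.143).

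miR-503-3p is the more abundant arm of the same hairpin in these cells and was not called at any time. It had 14.9 and 14.9 CPM at 12 h, against 19.7 and 15.7 CPM at 0 h. The 12 h libraries were below both 0 h libraries, but by less than 1 CPM for the lower of them. The log2 change at 12 h was -0.24 ± 0.20 (adjusted p = 0.486), and the trend was -0.020 per hour (adjusted p = 0.212). The trend passed with only reads of the reference length (-0.062 per hour, adjusted p = 0.0488) and with total-count scaling (-0.034 per hour, adjusted p = 0.0312).

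miR-322-5p, the best studied member, lay lower at 12 h than at 0 h in each replicate, but the replicates differed by more than the times did. It had 2171 and 1412 CPM at 12 h, against 2706 and 2002 CPM at 0 h. Replicate 2 was below replicate 1 at all 8 times, with a median log2 difference of -0.71, so the libraries of 12 h and 0 h overlapped. The log2 change at 12 h was -0.39 ± 0.38 (adjusted p = 0.573, edgeR quasi-likelihood test), and the 95% interval for the level left ran from 43.0% to 134%. In a fit of the 0 h and 12 h libraries alone it passed (-0.40, adjusted p = 0.0326). Once the replicate block had taken up this offset, miR-322-5p fell at 12 h (-0.42, adjusted p = 0.0144), at 10 h (-0.46, adjusted p = 0.00767), at 8 h (-0.42, adjusted p = 0.0192), at 6 h (-0.43, adjusted p = 0.0179) and at 4 h (-0.37, adjusted p = 0.0394); in that fit 12.2% of all tested miRNAs were called lower at 12 h and 8.46% at 10 h. The trend in that fit was -0.031 per hour (adjusted p = 0.00404), against -0.029 per hour without the block (adjusted p = 0.322). It also passed in replicate 1 alone (-0.018 per hour), but not in replicate 2 alone.

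miR-322-3p had 655 and 440 CPM at 12 h, against 770 and 550 CPM at 0 h. Here too replicate 2 was lower at all 8 times and the groups overlapped. Its log2 change was -0.27 ± 0.28 at 12 h (adjusted p = 0.596) and did not pass with the block either (-0.28, adjusted p = 0.0629).

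The 3 members from the far end of the run had fitted changes of -0.37 to -0.18 at 12 h, none called without the block. The changes of miR-322-3p and miR-503-3p, nearer the start of the run, lay within that range. miR-450a-5p had 255 and 189 CPM at 12 h, against 294 and 280 CPM at 0 h, so the 12 h libraries lay below both 0 h libraries. The log2 change was -0.37 ± 0.27 (adjusted p = 0.425), and the trend of -0.028 per hour (adjusted p = 0.153) passed with the block (-0.030, adjusted p = 0.0103). That trend also passed with total-count scaling and in replicate 2 alone, but not in replicate 1 alone. miR-542-3p had 78.8 and 69.5 CPM at 12 h, against 84.5 and 83.1 CPM at 0 h. Between these times its replicates parted, since replicate 1 stayed at 75.3 to 94.7 CPM while replicate 2 stood at 38.5 CPM at 4 h and 33.5 CPM at 10 h. Its log2 change at 12 h was -0.18 ± 0.43 (adjusted p = 0.821). miR-542-5p had 22.1 and 21.1 CPM at 12 h, against 27.8 and 21.7 CPM at 0 h, and its groups overlapped (log2 change -0.20 ± 0.19, adjusted p = 0.573).

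At 12 h, 6 of the 9 members had both libraries below both 0 h libraries, which was also the case for 31.2% of all tested miRNAs. These 6 were both arms of miR-503 and of miR-351, miR-542-3p and miR-450a-5p. At 6 h only 2 members, miR-351-5p and miR-503-5p, had this separation, beside 25.6% of all tested miRNAs. No member passed the test of a slope difference between the replicate numbers (adjusted p = 0.753 to 0.985). Among all 449 miRNAs no slope difference passed either, with 24 at an unadjusted p under 0.05.

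The ratio of 5p to 3p reads shows whether the arms of a hairpin changed by different amounts, and library size cancels in it. It does not say by itself which arm moved. Of the 5 hairpins of the cluster with both arms tested, which are those of 4 member pairs and miR-450b, only miR-503 passed for a trend in this ratio (limma on log2 ratios with 0.5 reads added, adjusted over 124 hairpins, of which 18.5% passed and 8.06% with a lower ratio). The ratio for miR-503 was 0.0800 and 0.158 at 12 h, against 0.319 and 0.345 at 0 h. Every later library of miR-503 was below both 0 h libraries. Its log2 ratio changed by -0.097 ± 0.023 per hour (adjusted p = 0.00680), a 5p arm that declined against its own partner. The number of cluster hairpins that passed is not far from the background share. The 5p side of miR-503 had only 8 to 45 reads a library, and with at least 50 reads in both arms this hairpin was not tested. The log2 ratio of miR-322 changed by -0.019 ± 0.013 per hour (adjusted p = 0.330), with 3.32 and 3.21 reads of the 5p arm for each 3p read at 12 h and 3.51 and 3.64 at 0 h. The ratio of miR-351 was 1498 and 1758 at 12 h, against 1476 and 1008 at 0 h, and was lowest, at 875, in replicate 1 at 10 h. Its log2 trend was -0.015 ± 0.020 per hour (adjusted p = 0.643), with a 95% interval of -0.057 to 0.027. miR-542 gave 0.0067 ± 0.030 per hour (adjusted p = 0.883) and miR-450b -0.039 ± 0.024 per hour (adjusted p = 0.269). These misses do not show that the arms of miR-322, miR-351, miR-542 or miR-450b moved alike.

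**Figure D4:**
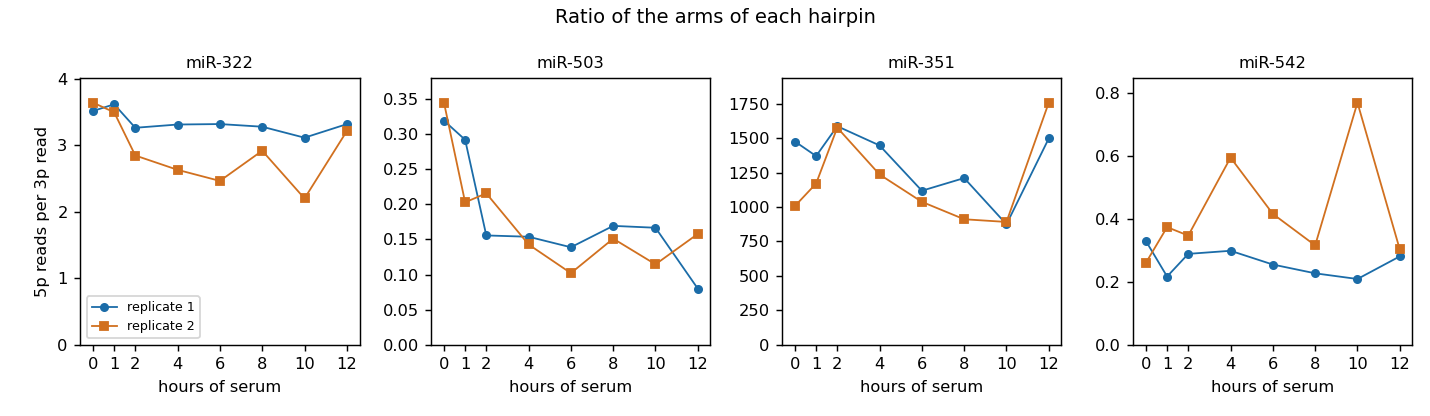
Reads of the 5p arm per read of the 3p arm (y axis from 0, a scale of its own in each panel) by hours of serum (x axis) for the 4 hairpins with both arms among the members, as blue circles for replicate 1 and orange squares for replicate 2. miR-503 lies at 0.0800 and 0.158 at 12 h, against 0.319 and 0.345 at 0 h, while miR-542 spreads up to 0.769 in replicate 2 at 10 h.

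Members were also set against miR-322-5p in the same library, which asks whether its neighbours moved unlike it. None of the other 8 members passed (limma, adjusted p under 0.05), where 9.6% of all tested miRNAs did, and 2 had an unadjusted p under 0.05. The nearest were miR-503-5p, whose log2 ratio to miR-322-5p changed by -0.086 ± 0.027 per hour (adjusted p = 0.0501), and miR-351-5p at -0.053 ± 0.020 per hour (adjusted p = 0.105). Both passed with the replicate block (adjusted p = 0.00507 for miR-503-5p and 0.00133 for miR-351-5p), where 43.3% of all tested miRNAs passed and 4.91% were lower. miR-503-5p also passed without 2 h replicate 1, 4 h replicate 1 or 12 h replicate 2. The other 6 members ran from -0.039 to 0.024 per hour, with miR-450a-5p the closest to miR-322-5p at 0.00051 per hour.

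The table sorts the reads of each miRNA by their ends, as equal to the reference, trimmed, or extended by bases that do or do not match the hairpin. These end forms show that the members differ in kind as well as in number. Trimmed reads made up 71.5% to 82.7% of miR-351-5p and 72.8% to 87.0% of miR-542-5p, but 4.61% to 7.02% of miR-322-5p. Reads with non-templated 3′ bases made up 53.9% to 61.6% of miR-322-3p and 54.6% to 79.2% of miR-542-3p. In miR-322-3p nearly all of these were U additions, at 51.9% to 59.8% of its reads. miR-450a-5p was about evenly split between reference reads (43.9% to 51.7%) and trimmed reads (46.1% to 53.4%).

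Of the 7 members with a mean of at least 50 reads a library, 3 changed in the share of trimmed reads (limma on the log2 ratio of these reads to the other reads of the miRNA, the log2 odds, per hour; 33.9% of all miRNAs tested for this share did) and 3 in the share with non-templated 3′ bases (30.8% of all). These counts of members are not far from the background shares. The non-templated share of miR-351-5p fell, a direction seen in 5.02% of the miRNAs tested, whereas 25.8% went up. It was 9.95% and 11.1% at 12 h, against 13.1% and 14.9% at 0 h, with Wilson 95% intervals of 9.64% to 10.3% and 10.8% to 11.5% at 12 h and of 12.9% to 13.3% and 14.6% to 15.1% at 0 h. Both 12 h libraries lay below both 0 h libraries. The log2 odds changed by -0.049 ± 0.0084 per hour (adjusted p = 0.000348). In miR-322-5p the share rose, with 32.0% and 31.5% at 12 h against 28.4% and 26.5% at 0 h (0.029 ± 0.0058 per hour, adjusted p = 0.00137). In miR-322-3p it also rose, with 61.0% and 61.6% at 12 h against 58.5% and 55.4% at 0 h (0.026 ± 0.0061 per hour, adjusted p = 0.00443). The hairpins Mir351 and Mir322 thus gave opposite signs in this share.

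The decline in the non-templated share of miR-351-5p lay in U additions. These averaged 4.78 ± 0.218% of its reads at 12 h and 8.30 ± 0.526% at 0 h. They were tested as a class of their own after the data had been seen, and 5.98% of all miRNAs tested for them passed, 5.18% lower. The U share of miR-351-5p was 4.63% and 4.94% at 12 h, against 7.93% and 8.67% at 0 h. All libraries of 6 h and later lay under 6%, and all of 0, 1 and 2 h above 7.8%. The log2 odds changed by -0.084 ± 0.0089 per hour (adjusted p = 1.88e-05), and A additions did not pass (-0.0058 ± 0.015 per hour, adjusted p = 0.843). miR-351-5p was the only one of the 7 members whose U share passed, while with the block those of miR-322-5p (0.023 per hour, adjusted p = 0.0149) and miR-322-3p (0.025 per hour, adjusted p = 0.0321) passed as well, upward.

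In CPM, U-tailed miR-351-5p stood at 220 ± 40.8 at 12 h and 790 ± 63.5 at 0 h, which left 27.8% of the 0 h mean. Its A-tailed reads left 49.7% and its trimmed reads 52.2% of their 0 h means. Reads equal to the reference stood at 389 ± 5.52 CPM at 12 h and 1035 ± 41.9 CPM at 0 h, or 37.6%. With only reads of the reference length miR-351-5p also passed at 4 h (-0.75, adjusted p = 0.00152) and at 6 h (-0.77, adjusted p = 0.000730), the times at which miR-503-5p was lost with those reads. The trimmed share of miR-351-5p rose by 0.054 ± 0.011 log2 odds per hour (adjusted p = 0.00114), with 82.7% and 78.8% at 12 h against 76.7% and 73.3% at 0 h. The trimmed share of miR-503-3p rose by 0.085 ± 0.022 per hour (adjusted p = 0.00809), with 37.0% and 30.5% at 12 h against 22.0% and 16.4% at 0 h. That of miR-322-3p fell by 0.021 log2 odds per hour (SE 0.0067; adjusted p = 0.0241). Leaving out 1 h replicate 1 (-0.019), 12 h replicate 1 (-0.020) or 12 h replicate 2 (-0.018) ended that call. The trimmed share of miR-322-5p passed only with the replicate block (-0.023 log2 odds per hour, adjusted p = 0.0481, against 0.0568 without it).

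**Figure D5:**
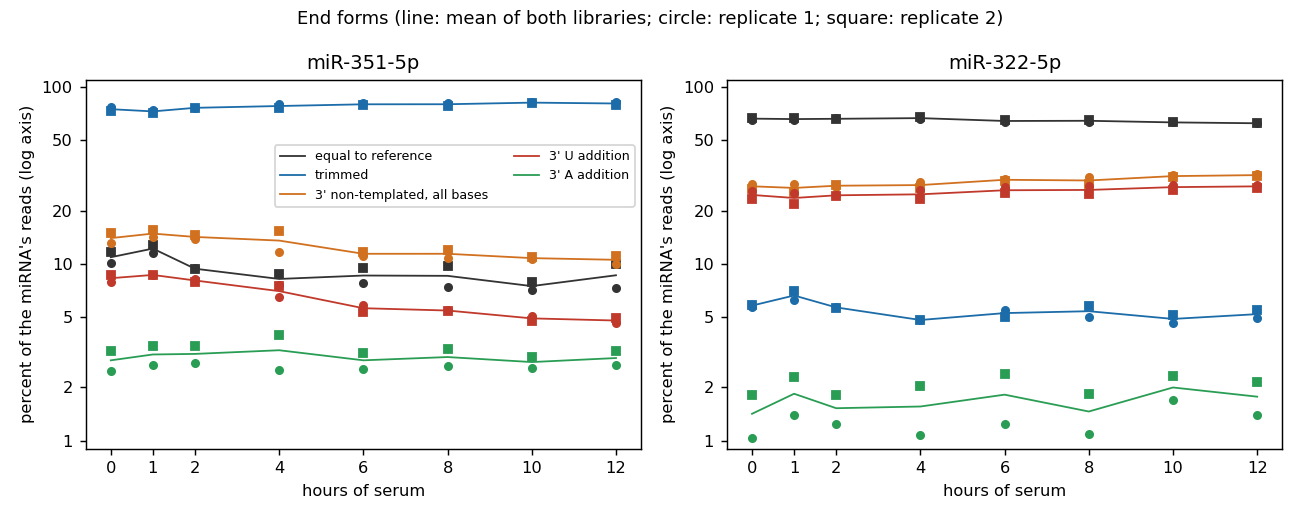
Percent of the reads of miR-351-5p (left) and miR-322-5p (right) in each end form (y axis, log scale) by hours of serum (x axis), with circles for replicate 1, squares for replicate 2 and lines for their mean. The red line of U additions in miR-351-5p goes down to 4.63% and 4.94% at 12 h, while the orange line of all non-templated 3′ reads in miR-322-5p ends at 32.0% and 31.5%.

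The cluster holds 4 further mature miRNAs, of which miR-450b-5p and miR-450b-3p passed the low-count filter. miR-450b-5p, the last hairpin's 5p arm, had 46.6 and 32.9 CPM at 10 h, against 57.8 and 80.4 CPM at 0 h. Both 10 h libraries lay below both 0 h libraries, and it fell at 10 h (log2 change -0.80 ± 0.24, adjusted p = 0.0413) and by the trend (-0.051 per hour, adjusted p = 0.0177), though its 12 h value did not pass (-0.57, adjusted p = 0.135). With the replicate block it was also called lower at 4 h (-0.73, adjusted p = 0.0246), 6 h (-0.68, adjusted p = 0.0347) and 8 h (-0.75, adjusted p = 0.020), and the DESeq2 test called it at 8 h (-0.73, adjusted p = 0.0330). The 10 h call ended when any single library of 1, 2, 4 or 12 h, or replicate 2 of 0 h or 10 h, was left out (-0.78 to -0.52). It also ended in a fit of the 0 h and 10 h libraries alone (-0.75, adjusted p = 0.101). The trend ended without 0 h replicate 2 (-0.039), without the 0 h libraries (-0.034), in replicate 1 alone (-0.028, adjusted p = 0.0758) and in replicate 2 alone (-0.069, adjusted p = 0.0905). The 12 h value passed with total-count scaling (-0.73, adjusted p = 0.0417), reads of the reference length (-1.23, adjusted p = 0.0255) and the 0 h and 12 h libraries alone (-0.59, adjusted p = 0.0326). miR-450b-3p was not called (12 h log2 change -0.42 ± 0.29, adjusted p = 0.402).

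Seed relatives outside the cluster were compared as well. RefSeq lists 9 other mature mouse miRNAs with the seed of miR-322-5p, of which 5 were tested. None of these 5 passed at any time or by the trend, with 1 at an unadjusted p under 0.05 at 12 h. None passed by DESeq2 or limma-voom. miR-16-5p had 10741 and 10470 CPM at 12 h, against 12366 and 12460 CPM at 0 h. Those groups lay apart, but the log2 change of -0.23 ± 0.094 did not pass (adjusted p = 0.135). With total-count scaling it did (-0.39, adjusted p = 0.0133), and so did the trends of miR-16-5p (-0.024 per hour) and miR-15a-5p (-0.028 per hour). Among the relatives of miR-351-5p, miR-125b-5p had a positive change at every time and rose at 10 h (0.52 ± 0.14, adjusted p = 0.0261) and by the trend (0.035 per hour, adjusted p = 0.00398), but both calls were lost with total-count scaling (adjusted p = 0.0960 at 10 h and 0.0593 for the trend). The 10 h call also ended without either 0 h library or 10 h replicate 2 (0.48 to 0.61). The trend of miR-125b-5p also ended in replicate 2 alone (0.021 per hour). It had 17651 and 13745 CPM at 12 h, against 11337 and 12742 CPM at 0 h, a log2 change that passed with the replicate block (0.38, adjusted p = 0.0490). miR-125a-5p was not called (12 h log2 change 0.056 ± 0.15, adjusted p = 0.836). Its trend passed, upward, with reads of the reference length (0.034 per hour, adjusted p = 0.00373) and in replicate 1 alone (0.023 per hour).

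Outside the cluster, the miRNAs whose pattern over the 16 libraries was most like the mean of the 9 members were miR-34a-5p (Pearson r = 0.921), miR-26a-5p (0.906), miR-467e-5p (0.890), miR-106b-5p (0.852) and miR-15a-5p (0.845). These are descriptions over libraries that share times, runs and scaling, with no test. miR-34a-5p averaged 105 ± 22.4 CPM at 12 h and 178 ± 10.98 CPM at 0 h and had a downward trend (-0.059 per hour, adjusted p = 0.00361). Among the members themselves, the correlation with their own mean was 0.923 for miR-450a-5p and 0.881 for miR-322-5p, and lowest for miR-542-5p at 0.242. Each member is part of that mean, which raises its r, so these values cannot be set against those of the miRNAs outside the cluster.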

How the data were processed

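The values are raw counts as the authors deposited them, with 1 entry for each miRNA and end class and a column for each library per the file headers; no scaling shows in them. The submitters' processing notes name CASAVA 1.8.0. The genome build, aligner, miRBase release and handling of reads that match several miRNAs were not given in the sources used here, and what each end class means was read from its name. From the 6511 entries 1 duplicate was dropped, and 8 classes were summed per miRNA, so that each read counted once.

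Counts were tested with edgeR 4.0.16 (quasi-likelihood, R 4.3.3), after TMM scaling with factors of 0.935 to 1.07 and filterByExpr (minimum count 10), which left out 718 miRNAs. Arm ratios, ratios to miR-322-5p and end shares were tested with limma 3.58.1 after adding 0.5 reads. All 16 libraries entered each fit, and Benjamini-Hochberg adjustment ran over all miRNAs or hairpins tested, at 0.05. The SE of an edgeR log2 change is approximate (its size divided by the root of F). The 95% intervals built on these SEs use t quantiles with the residual plus prior degrees of freedom of the fit. Those of arm ratio trends use the residual degrees of freedom alone. CPM used TMM-scaled totals. The tested miRNAs held at least 99.986% of each library's reads. The scripts were tested on simulated data. Total-count scaling moved the median log2 change of all miRNAs to -0.15 at 12 h, against 0.0047 with TMM.

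Libraries with the same replicate number deviated together: 28 correlations of their deviations from the time means ran from 0.106 to 0.569 (median 0.267). The numbers therefore pair the libraries. The main calls, counts and figure marks nevertheless come from fits without the number as a block. Fits with the block are given beside the reported calls they change. The alternatives were DESeq2 1.42.0 and limma-voom, other scalings and filters, reference-length reads, other pseudocounts and read minimums, and leaving out each library.

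All members are named; of 3 other lists (rest of the cluster and seed relatives) at most 4 members each are named, by abundance, plus the 5 miRNAs with the highest correlation to the members' mean. The members and lists were chosen with earlier results of these data known.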

Additional observations from a re-analysis of the deposited data

How the results depend on the processing

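The 12 h and trend calls of miR-351-5p held under every alternative run. With the replicate block the number of members called lower was 2 at 4 h, 3 at 6 h, 3 at 8 h and 5 by the trend; 2 passed against miR-322-5p, 1 in the templated 3′ share (miR-351-5p, lower) and 3 in the U share. The pairing changed no other count by over 1.5 times. Total-count scaling gave 2 at 8 h and 5 by the trend (miR-450a-5p and miR-503-3p added), and reference-length reads 2 at 8 h, while at 4 h and at 6 h those reads gave miR-351-5p in place of miR-503-5p. A mean of at least 10 CPM, which leaves miR-503-5p and miR-351-3p untested, gave 1 for any change, 0 at 4 h, 0 at 6 h and 1 each at 10 h, at 12 h and by the trend. DESeq2 gave 0 at 4 h and 0 at 6 h; the cause was not tested. With at least 50 reads in both arms no hairpin of the cluster passed (0), since miR-503 was not tested.

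Leaving out each library in turn gave 1 to 3 members for any change, 0 to 1 at 4, 6 and 8 h, 0 to 2 at 10 h, 2 to 3 at 12 h and by the trend, 0 to 1 against miR-322-5p, 2 to 4 in the trimmed share, 0 to 1 in the templated 3′ share and 1 to 2 in the U share.

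Values that changed sign were not called. Leaving out each library in turn gave -0.30 to 0.030 for miR-351-5p at 1 h and -0.29 to 0.075 at 2 h, both positive without 0 h replicate 1. For miR-322-3p it gave -0.57 to 0.029 at 12 h and -0.017 to 0.00089 by the trend, for miR-542-5p -0.37 to 0.032 at 12 h and -0.012 to 0.0020 by the trend, and for miR-542-3p -0.019 to 0.0063 by the trend. The arm ratio of miR-542 ran from -0.018 to 0.020 and miR-450a-5p against miR-322-5p from -0.0058 to 0.0053. The trend of miR-542-3p was 0.0078 without the 0 h libraries and 0.0095 in replicate 1 alone. miR-542-5p gave 0.34 at 12 h and 0.011 by the trend with reference-length reads, and its trend was 0.0050 without the 0 h libraries and 0.0029 in replicate 2 alone.

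Depth limits miR-503-5p and miR-351-3p most, at 8 to 45 and 14 to 63 reads a library. With 2 libraries a time, intervals such as 43.0% to 134% for miR-322-5p at 12 h cover both no change and a large loss.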
